A study of Mus musculus with 8 samples.

Results

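Expression of 36 genes of glycolysis and of the cellular response to low oxygen was examined in pancreatic tumour isografts, tumours grown in mice from transplanted mouse tumour material. The genes were taken from a list chosen by name: 3 carriers of glucose and lactate, 14 glycolytic enzymes, 3 enzymes that steer glucose carbon, 4 genes for HIF subunits and the hydroxylases that act on them, and 12 further hypoxia response genes. All 36 were measured, out of 19129 genes analysed. RNA came from 8 mice, and total RNA libraries from 4 of them are labelled control and from the other 4 MEKi, meaning treatment over 7 days with trametinib, a drug that blocks MEK1 and MEK2, the kinases that activate ERK. The sources used here do not give what the control mice received, nor the strain, tumour genotype and age of the mice. The text writes control 1 to 4 and MEKi 1 to 4 for the libraries.

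Glycolysis breaks glucose down to pyruvate, which lactate dehydrogenase turns into lactate for export. When oxygen is short, prolyl hydroxylases no longer mark the alpha subunits of hypoxia-inducible factors (HIF) for destruction, and HIF then switches on glycolytic enzymes, glucose carriers, angiogenic factors and its own hydroxylases. Pancreatic tumours are known for dense stroma, sparse vessels and low oxygen, and MEK and ERK signalling is known to sustain glucose uptake in models of this cancer. HIF is controlled mainly at the level of protein, so the RNA of its subunits does not measure its activity.

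Values are variance-stabilised and log2-like: 1 unit is about a 2-fold change where reads are many, and the scale understates changes of genes with few reads. Reads in the genes analysed numbered from 20090101 to 38569550 per library, and the smallest count of any member was 42, for Adm in MEKi 3. Ductal and tumour epithelium markers were present throughout (10 of 10 measured, list means from 12.03 to 12.75). Several libraries stood apart in other cell markers. The 14 acinar markers, genes of the digestive enzyme cells of the normal pancreas, averaged 15.68 in control 2 and 17.40 in control 3, against 5.93 in MEKi 3 and 8.56 to 11.79 in the other 5 libraries. The 5 erythroid markers averaged 11.08 in MEKi 3 and 9.29 in control 2, against 6.97 to 7.85 elsewhere. Dusp6, a gene that ERK signalling switches on and that MEK inhibition is known to lower, was low in control 3, control 4 and MEKi 1 and high in the other 5, so it did not follow the labels, and every direction given here is between labels only. In whole tumour RNA, fewer cells of a type and less RNA per cell cannot be told apart.

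Per length of annotated exon, Gapdh, Tpi1, Ldha, Pkm and Pgk1 had the highest mean levels among the members placed on this scale. In RPKM, reads per kilobase of exon scaled to the depth of the library, Gapdh, whose enzyme oxidises glyceraldehyde phosphate, averaged 581 over the 8 libraries, followed by the isomerase gene Tpi1 at 319, the lactate dehydrogenase gene Ldha at 293 and the pyruvate kinase gene Pkm at 289. Tpi1, Ldha and Pkm overlapped over the libraries (from 235 to 413, 202 to 374 and 195 to 357), so no order among them is drawn. Gapdh ran from 401 to 769, lowest in control 3, where the acinar markers took 136186 RPM (reads scaled to library depth). The part of the acinar reads in that low value was not tested. On the log2-like scale, which uses size factors, Gapdh was instead lowest in MEKi 4 (15.42, against 15.63 in control 3). Vegfa, which encodes the main growth factor for blood vessels, averaged 133 in RPKM, close to the enolase gene Eno1 at 135 and above Pgam1, a phosphoglycerate mutase gene, at 63.5. The length used is that of all annotated exons of a gene together, 5379 bases for Eno1 and 4285 for Vegfa. It can exceed the length of the transcripts present, so comparisons between genes on this scale depend on it. At the other end were the glucose carrier gene Slc2a3 at 1.27 and Adm, which encodes the vasodilator peptide adrenomedullin, at 6.06. Several enzyme genes have copies or pseudogenes named after them, with ps or rs added to the name (in GENCODE M21, 6 for Tpi1, 3 for Pgk1 and 2 for Gapdh). Copies under other names were not counted, so these numbers may be too low and do not rank the genes. As the sources used here do not give the counting step, the levels of such genes are uncertain. Aldoa is left out of this scale because its symbol belongs to more than 1 annotated gene. It had 124140 reads over all libraries, against 83089 for Pgk1, so its place among the highest is open.

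**Figure D1:**
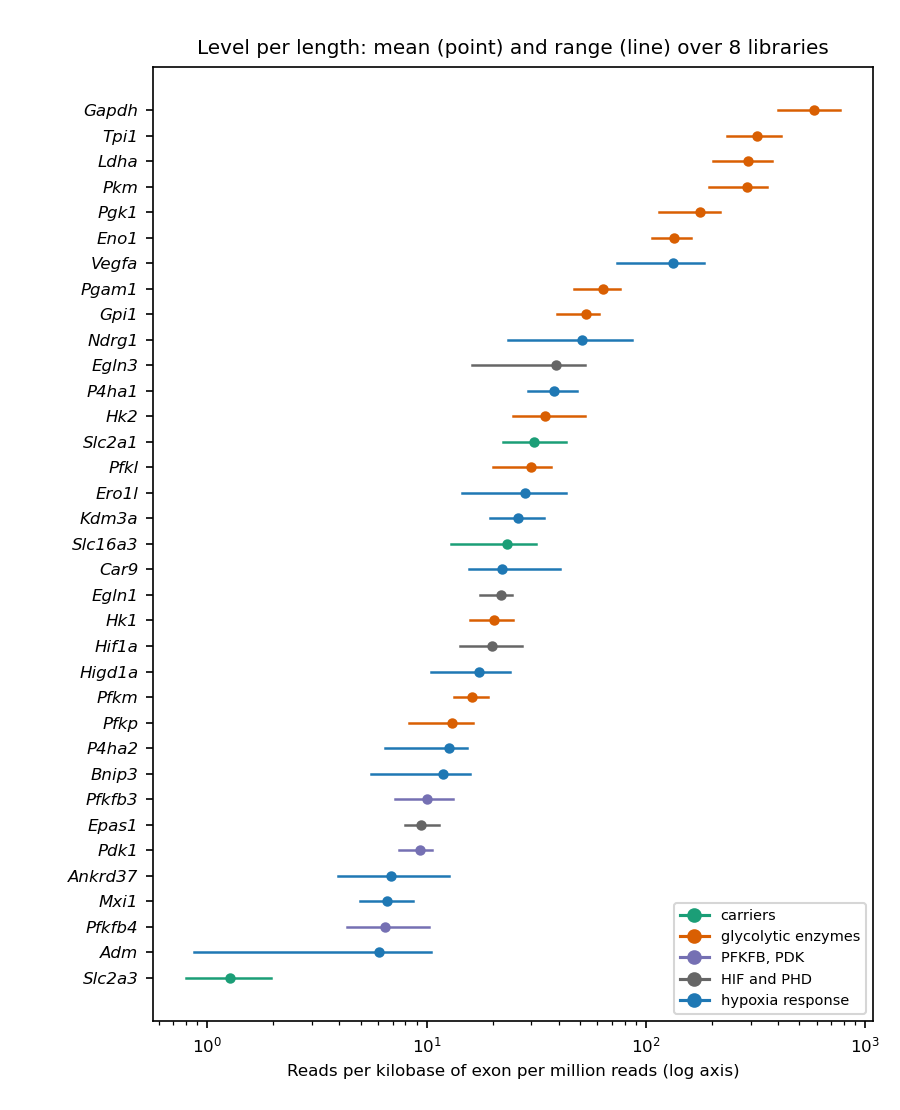
Level per length of 35 of the 36 genes, in RPKM (reads per kilobase of exon scaled to depth) on a log axis; points are means and lines the range over 8 libraries, coloured by role. Gapdh is highest at 581 and Slc2a3 lowest at 1.27, and Adm has the widest relative range.

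The labels did not separate these genes. Limma called 0 of the 36 members at an adjusted p under 0.05 (0.00523% of all genes were called, 1 gene that is no member), 0 had an unadjusted p under 0.05 (1.77% of all genes), and the control and MEKi libraries overlapped for every member (of all genes, 0.565% were higher and 0.701% lower without overlap, 1.27% in all). Limma voom on reads recovered from the values also called 0 members, with 0 at an unadjusted p under 0.05. Over the other settings tried, at most 4 members were under an unadjusted p of 0.05 (without MEKi 1), and the lowest adjusted p was 0.984. The mean under the MEKi label was lower for 31 of the 36 members, against 48.4% of all genes, with a median difference of -0.12 beside 0.01 over all genes. For 34 members the difference was smaller than the pooled SD between mice. This lean rested in large part on MEKi 3: without it 19 of 36 members had lower means, without control 2 the count was 24, and without both 14; leaving out control 2 with MEKi 3 was chosen after seeing the data. Without MEKi 4 it was 24, and it was 35 without control 4 and 35 without MEKi 2. All 95% intervals of single members include 0, and the widest, for Adm, ran from -1.66 to 0.12.

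**Figure D2:**
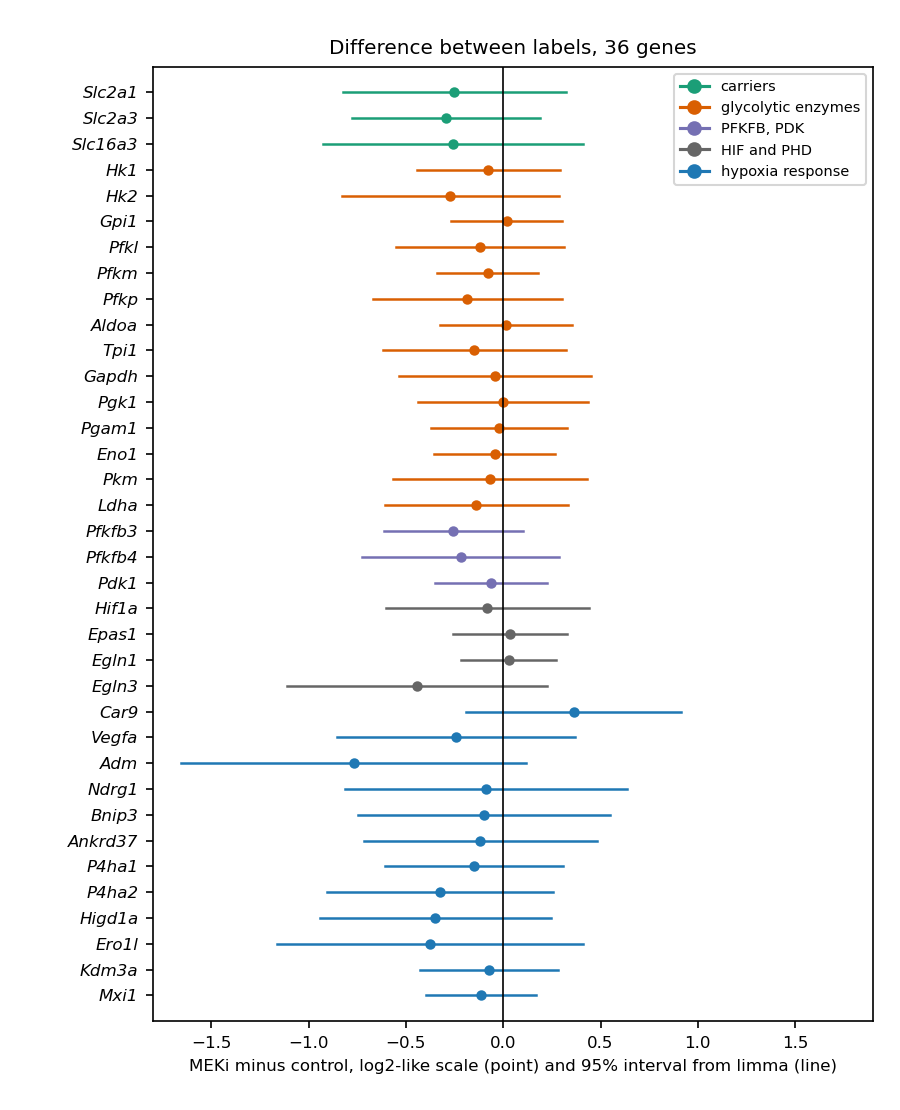
Difference between labels for 36 genes (MEKi minus control, log2-like scale); points are estimates and lines 95% intervals from limma, coloured by role. Every interval crosses 0; Adm lies farthest below at -0.77 and Car9 farthest above at 0.36.

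The carriers differed more between tumours of one label than between labels. Slc2a1 (chromosome 4, 119108711 to 119137983), which encodes the basal glucose carrier GLUT1, had 11.92, 12.05, 11.36 and 10.94 in control 1 to 4 and 11.41, 11.76, 11.07 and 11.01 in MEKi 1 to 4. The highest libraries were control 2, control 1 and MEKi 2 and the lowest was control 4, so both labels spanned most of the range. The difference was -0.25 (SE 0.26, 11.57 ± 0.51 against 11.31 ± 0.35, SD, n = 4). Slc16a3, which encodes the lactate exporter MCT4, had 11.93, 12.18, 11.55 and 11.31 and 11.97, 12.04, 11.16 and 10.78 in the same order. Here MEKi 4 was lowest, 2.72-fold below control 2 in size-scaled reads, while MEKi 1 and MEKi 2 lay with the high controls. Slc2a3, which encodes the high-affinity carrier GLUT3, found in neurons and white blood cells, had 8.36, 8.83, 8.09 and 8.15 in the controls and 8.06, 8.03, 8.47 and 7.68 in the MEKi libraries. Its difference of -0.29 (SE 0.21) was -0.14 without control 2 and -0.43 without MEKi 3. Control 2 and MEKi 3 were its 2 highest libraries, and also the 2 highest for the neutrophil marker mean (9.52 and 9.93, 7 of 7 markers measured, range 8.00 to 9.93 over all libraries). By summed neutrophil level MEKi 3 was again highest (449 RPM), but control 2 (240) lay below control 4 (330), control 1 (268) and MEKi 1 (252). The macrophage marker mean was highest in control 2 (11.51), followed by control 1 (11.01) and MEKi 3 (10.99). The part of those cells in Slc2a3 was not tested.

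Most glycolytic enzymes were highest in the same 4 libraries, 2 of each label. Of the 14, 12 had lower and 2 had higher means under the MEKi label, with a median difference of -0.07 and 0 calls; after quantile normalization 5 of the lower ones (Gapdh, Pgk1, Eno1, Pkm and Ldha) had higher means. Hk2 (chromosome 6, 82725025 to 82774454), the inducible hexokinase that traps glucose in the cell, had the largest difference among them, -0.27 (SE 0.25). Its values were 12.99, 12.91, 12.16 and 11.91 in control 1 to 4 and 12.19, 12.60, 12.13 and 11.98 in MEKi 1 to 4. Control 1 and control 2 stood above all MEKi libraries, while control 4 was the lowest of the 8. The housekeeping hexokinase gene Hk1 varied less, over 0.68 against 1.07 for Hk2 on the log2-like scale.

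Pgk1 (chromosome X, 106187100 to 106203699), whose enzyme makes the first ATP of the pathway, had 13.54, 13.53, 12.95 and 13.15 in the controls and 13.57, 13.57, 13.18 and 12.85 in the MEKi libraries. Control 1, control 2, MEKi 1 and MEKi 2 lay between 13.53 and 13.57 and the other 4 were lower, with MEKi 4 at the bottom. The label means were 13.29 ± 0.29 against 13.29 ± 0.35, SD, n = 4. Ldha (chromosome 7, 46841475 to 46855627) followed with 14.76, 14.91, 14.43 and 14.52 and 14.91, 14.81, 14.34 and 14.01. Again control 2, MEKi 1, MEKi 2 and control 1 were high and MEKi 4 was lowest, 1.87-fold below control 2 in size-scaled reads. The difference between labels was -0.14 (SE 0.21, 14.66 ± 0.22 against 14.52 ± 0.42, SD, n = 4).

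These 4 libraries, control 1, control 2, MEKi 1 and MEKi 2, were the highest 4 for 13 of the 14 enzymes, a pattern noticed in these data and given as a description. The same holds for 2.12% of all genes. These libraries carry replicate numbers 1 and 2 under both labels, and a batch shared by number was not tested. The full order differed between enzymes: the highest library was control 2 for 7 enzymes and MEKi 1 for 4, and the lowest was MEKi 4 for 8 and MEKi 3 for 4. Of all genes, control 2 was highest for 10.9% and MEKi 1 for 7.09%, and MEKi 4 was lowest for 21.6% and MEKi 3 for 13.8%. The enzyme without this set of 4 is Pfkm, the phosphofructokinase isozyme of muscle, named like Gapdh after its values were seen, which spanned 0.47 and was highest in control 4. Gapdh, often used as a reference gene, took part, with 15.94, 16.17, 15.63 and 15.91 in the controls and 16.26, 16.16, 15.63 and 15.42 in the MEKi libraries. It was lowest in MEKi 4 and spanned 0.84, above the 0.62 median over all genes. The carriers Slc2a1 and Slc16a3 had the same highest 4, as did Egln1, P4ha1, P4ha2, Higd1a and Mxi1, which made 20 of the 36 members. Keratin genes of the epithelium showed it too, for 4 of the 10 epithelial markers (Krt7, Krt8, Krt18 and Krt19). The epithelial list mean was 12.71, 12.66, 12.60 and 12.55 in the controls and 12.68, 12.75, 12.51 and 12.03 in the MEKi libraries. The summed level of these markers ranged from 5121 to 7077 RPM in the controls and from 5457 to 7424 in the MEKi libraries. Both the list mean and the sum were highest in the enzymes' 4 libraries, though in the sum MEKi 3 (6884) lay close to control 2 (6897). MEKi 4 was the lowest library for 7 of the 10 markers, against 21.6% of all genes. The part of epithelial content in the enzyme pattern was not tested. The list mean of the enzymes was 13.43, 13.54, 13.11 and 13.14 in control 1 to 4 and 13.46, 13.49, 13.01 and 12.92 in MEKi 1 to 4.

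**Figure D3:**
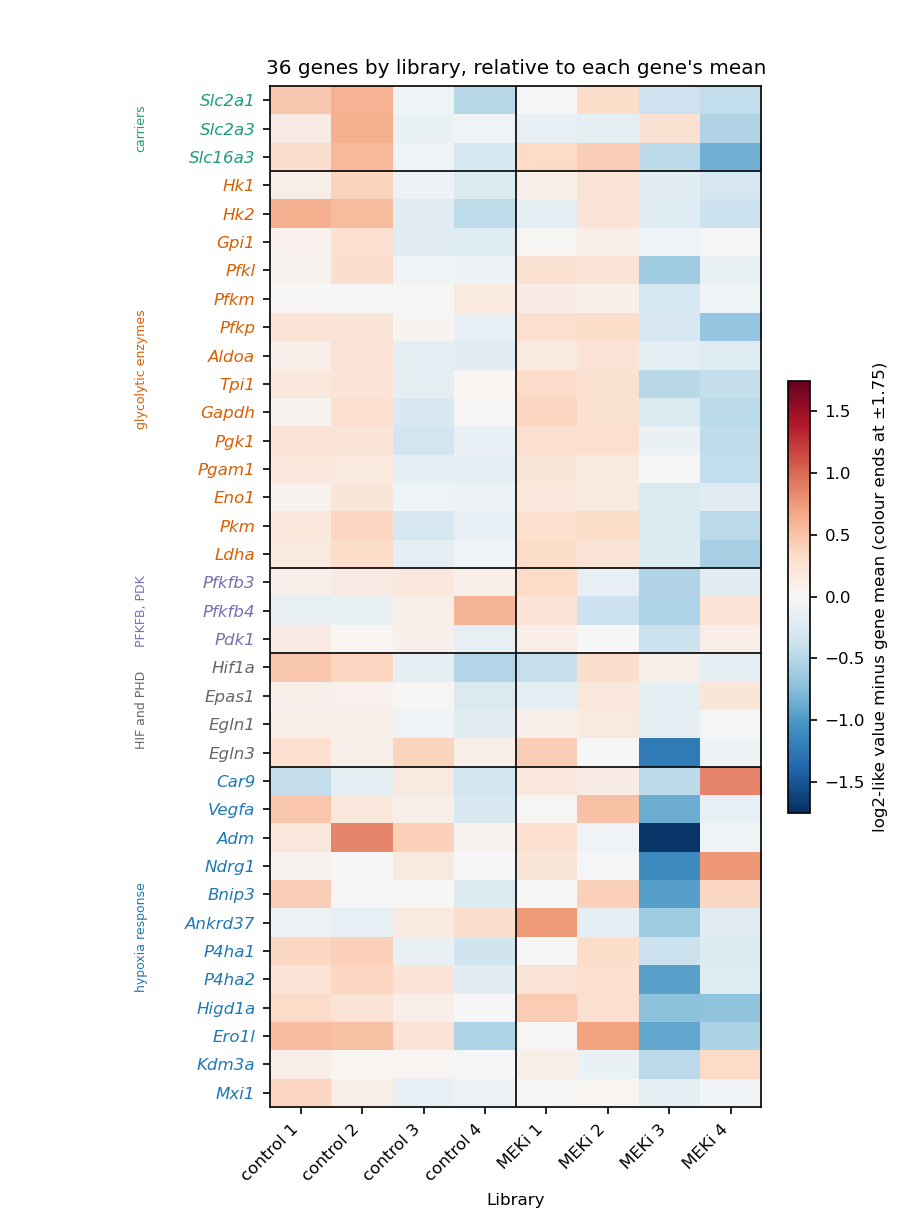
Values of 36 genes (rows, grouped by role) in 8 libraries (columns), each relative to the mean of its gene on the log2-like scale; red is above and blue below the mean. Most enzymes are red in control 1, control 2, MEKi 1 and MEKi 2, and the hypoxia response genes are bluest in MEKi 3, where all 12 have their lowest value.

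None of the 3 genes that steer glucose carbon had those 4 libraries as its highest. Pfkfb3 makes the activator of phosphofructokinase and had 11.06, 11.10, 11.14 and 11.07 in control 1 to 4 and 11.30, 10.82, 10.44 and 10.77 in MEKi 1 to 4. The controls were nearly equal, and the MEKi libraries reached both above and below them. The difference of -0.26 (SE 0.16) was -0.13 without MEKi 3 and -0.41 without MEKi 1 (limma adjusted p = 0.984). Pfkfb4, a second enzyme of that kind, had 9.60, 9.62, 9.84 and 10.33 and 9.97, 9.37, 9.20 and 9.97, highest in control 4 and lowest in MEKi 3. Pdk1, a kinase that shuts pyruvate out of the mitochondrial cycle, had 11.06, 10.95, 11.01 and 10.77 in the controls and 11.03, 10.92, 10.55 and 11.04 in the MEKi libraries. Apart from MEKi 3, its values lay between 10.77 and 11.06.

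Among HIF subunits, Hif1a varied more than Epas1. Hif1a (chromosome 12, 73901375 to 73947530), the subunit most tied to glycolytic genes, had 12.04, 11.94, 11.39 and 11.05 in control 1 to 4 and 11.16, 11.86, 11.65 and 11.40 in MEKi 1 to 4. Control 1, control 2 and MEKi 2 were high and control 4 and MEKi 1 were low, with a difference between labels of -0.08 (SE 0.23). Epas1 encodes HIF-2 alpha, known from endothelial and erythropoietin-producing cells, and had 10.56, 10.55, 10.49 and 10.22 and 10.30, 10.67, 10.30 and 10.68. The 8 values spanned 0.46; MEKi 2 and MEKi 4 lay above all controls and control 4 below all MEKi libraries, while the rest overlapped. Endothelial markers (8 of 8 measured) had list means from 8.66 to 9.79 in the controls and from 8.70 to 9.29 in the MEKi libraries, and their part in Epas1 was not tested.

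The hydroxylase genes behaved unlike each other. Egln1, which encodes PHD2, the main oxygen sensor of HIF, had the narrowest range of all members, 0.36. Egln3 (chromosome 12, 54178981 to 54203860) encodes PHD3, itself strongly induced by HIF, and had 11.66, 11.45, 11.76 and 11.47 in the controls and 11.80, 11.37, 10.13 and 11.28 in the MEKi libraries. Without MEKi 3 its values lay between 11.28 and 11.80, and MEKi 3 minus the lowest of these was -1.15. The difference between labels of -0.44 (SE 0.30, 11.59 ± 0.15 against 11.14 ± 0.71, SD, n = 4) was -0.10 without MEKi 3. Egln3 was 3.32-fold lower in MEKi 3 than in MEKi 1 in size-scaled reads, 2 libraries of the same label.

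All 12 hypoxia response genes had their lowest value in MEKi 3, against 13.8% of all genes, again a pattern noticed in these data. For 4 of them the next library was close: MEKi 3 minus the lowest of the other 7 was -0.0089 for Higd1a, -0.015 for Mxi1, -0.034 for P4ha1 and -0.042 for Car9, and it was from -1.62 (Adm) to -0.36 (Ero1l) for the other 8. Among the 36 members it was the lowest library for 20, Egln3 and all 3 of Pfkfb3, Pfkfb4 and Pdk1 included. Adm (chromosome 7, 110627661 to 110629820) had 8.40, 9.05, 8.61 and 8.26 in control 1 to 4 and 8.49, 8.14, 6.50 and 8.12 in MEKi 1 to 4. Only MEKi 3 lay far from the rest, with 42 reads against 538 in control 2, a 13.5-fold difference after size scaling. Its difference between labels was the largest among members, -0.77 (SE 0.40, limma unadjusted p = 0.0819, adjusted p = 1), and -0.33 without MEKi 3.

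Vegfa (chromosome 17, 46016993 to 46032369) had 14.28, 14.00, 13.90 and 13.52 in the controls and 13.82, 14.32, 12.93 and 13.65 in the MEKi libraries. MEKi 2 was the highest and MEKi 3 the lowest of all 8, so the MEKi label held both ends. Without MEKi 3 the difference of -0.24 (SE 0.27) was close to 0. Bnip3, whose protein directs mitochondria to autophagy, had 9.94, 9.51, 9.54 and 9.27 and 9.50, 9.93, 8.56 and 9.88. Its difference turned from -0.10 to 0.21 without MEKi 3. Ndrg1, a stress-responsive gene chosen after its values were seen, had 13.08, 13.02, 13.18 and 12.99 in the controls and 13.24, 12.99, 11.91 and 13.79 in the MEKi libraries. The 4 controls lay between 12.99 and 13.18, whereas MEKi 3 and MEKi 4 were the lowest and highest libraries, 3.73-fold apart in size-scaled reads.

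Car9 (chromosome 4, 43506966 to 43513729), which encodes the surface carbonic anhydrase CAIX and is used as a marker of hypoxic tumour cells, was the single response gene with a higher mean under the MEKi label. Its values were 9.95, 10.21, 10.52 and 10.04 in control 1 to 4 and 10.55, 10.50, 9.91 and 11.22 in MEKi 1 to 4. MEKi 4 stood apart at the top, and MEKi 3 was lowest but close to control 1. The difference was 0.36 (SE 0.25, 95% interval from -0.19 to 0.91), 0.14 without MEKi 4, 0.57 without MEKi 3 and 0.71 with the acinar mean as a covariate, with a limma adjusted p over 0.05 in each case. The other 11 response genes had lower means, and the median difference of the 12 was -0.13. This median was -0.02 without MEKi 3. P4ha1 and P4ha2, collagen prolyl hydroxylases, Ero1l, an oxidase of the endoplasmic reticulum, Higd1a, which encodes a mitochondrial protein, Kdm3a, a histone demethylase, Mxi1, an opponent of MYC, and Ankrd37 differed by between -0.38 (Ero1l) and -0.07 (Kdm3a).

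MEKi 3 also differed from the other libraries in cell markers. Its acinar mean was the lowest, with 13 of 14 markers at their lowest there. Its erythroid and neutrophil means were the highest (11.08 and 9.93). The summed erythroid level was 610.5 RPM in MEKi 3, against 27.7 to 178 in the controls. No marker of these 3 lists was at 0 reads in all libraries. The endothelial mean, 9.15, and the epithelial mean, 12.51, were within the range of the others. The part of blood cells in the low hypoxia response genes was not tested.

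**Figure D4:**
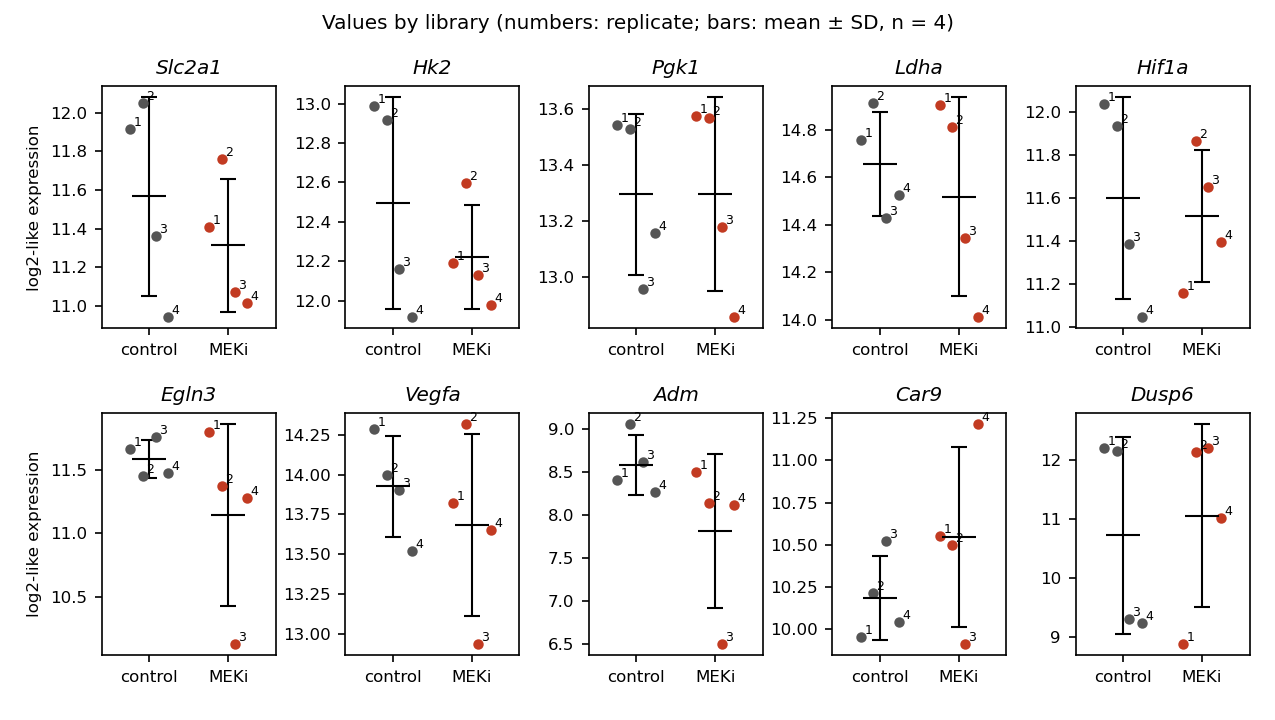
Values of 9 members and Dusp6 in each library on the log2-like scale, by label; numbers are replicates, and bars are mean ± SD (n = 4). The labels overlap for each gene, and among these MEKi 3 is the lowest of all libraries for Egln3, Vegfa, Adm and Car9.

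The promoters of the members were searched for 2 forms of the core letters that HIF is known to bind, ACGTG and GCGTG, because many members varied together. ACGTG, shown here, was searched on either strand (a match on the opposite strand reads CACGT as printed), in RefSeq windows of 300 bases, 250 before to 50 after a start (build GRCm38.p6). Where the letters read CACGTG, both strands match and overlap. Windows were found for 33 of the 36 genes, Ero1l through its newer symbol Ero1a. At least 1 window held the motif for 24 of them, among these 9 of 11 hypoxia response genes and 9 of 14 enzymes. The share per gene over all 27025 genes with a window was 21.8%. Over all 32851 windows the share per window was 19.6%, and over those with at least the members' median GC content it was 26.8%. Counted per window, 28 of the members' 50 held it. GCGTG, on either strand, was in a window of 22 of the 33 genes, against 35.2% of all genes. Per window, it was in 32.4% of all windows and in 62.1% of those with at least the members' median GC content. Some members have several windows, so their count per gene is not comparable with these shares per window. No excess of GCGTG among the members is drawn from it. The genes were listed as hypoxia responders from prior knowledge, so this is a description and a match is not a site. The 6 windows printed hold matches in genes of the patterns above, the first 4 from genes lowest in MEKi 3 and the last 2 from enzymes. Capitals mark the motif, and each window is read 5′ to 3′ on the strand of its gene; Ldha has a second window that is not printed.
Car9 (chr4:43506776-43507075, plus strand): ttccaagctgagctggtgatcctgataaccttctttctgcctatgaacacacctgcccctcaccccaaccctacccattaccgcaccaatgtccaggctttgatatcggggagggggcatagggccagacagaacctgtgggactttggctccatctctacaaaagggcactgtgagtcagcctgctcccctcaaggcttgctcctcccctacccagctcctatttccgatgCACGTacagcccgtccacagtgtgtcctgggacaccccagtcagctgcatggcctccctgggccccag
Ankrd37 (chr8:45999801-46000100, minus strand): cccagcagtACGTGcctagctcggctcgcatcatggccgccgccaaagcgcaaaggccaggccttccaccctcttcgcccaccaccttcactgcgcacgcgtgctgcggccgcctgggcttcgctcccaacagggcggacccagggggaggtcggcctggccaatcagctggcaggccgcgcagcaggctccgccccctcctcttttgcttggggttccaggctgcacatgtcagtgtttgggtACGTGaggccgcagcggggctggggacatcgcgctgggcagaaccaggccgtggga
Bnip3 (chr7:138909457-138909756, minus strand): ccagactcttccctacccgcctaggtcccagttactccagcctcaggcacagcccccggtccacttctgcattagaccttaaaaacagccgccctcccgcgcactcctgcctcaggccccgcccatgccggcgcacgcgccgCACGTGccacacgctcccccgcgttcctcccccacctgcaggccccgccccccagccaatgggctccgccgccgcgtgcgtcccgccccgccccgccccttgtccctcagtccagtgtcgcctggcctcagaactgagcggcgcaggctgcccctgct
Egln3 (chr12:54203825-54204124, minus strand): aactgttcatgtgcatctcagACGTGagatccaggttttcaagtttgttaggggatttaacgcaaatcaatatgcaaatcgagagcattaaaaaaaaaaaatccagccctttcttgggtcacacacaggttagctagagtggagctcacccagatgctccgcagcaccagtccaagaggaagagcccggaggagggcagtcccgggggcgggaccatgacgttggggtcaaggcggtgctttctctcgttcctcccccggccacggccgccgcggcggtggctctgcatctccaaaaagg
Pgk1 (chrX:106186850-106187149, plus strand): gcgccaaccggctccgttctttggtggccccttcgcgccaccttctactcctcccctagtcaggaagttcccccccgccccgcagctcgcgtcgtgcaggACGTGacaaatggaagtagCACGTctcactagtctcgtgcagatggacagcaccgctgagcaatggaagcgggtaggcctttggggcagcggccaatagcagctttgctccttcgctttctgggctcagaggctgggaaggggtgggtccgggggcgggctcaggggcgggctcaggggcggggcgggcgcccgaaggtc
Ldha (chr7:46845554-46845853, plus strand): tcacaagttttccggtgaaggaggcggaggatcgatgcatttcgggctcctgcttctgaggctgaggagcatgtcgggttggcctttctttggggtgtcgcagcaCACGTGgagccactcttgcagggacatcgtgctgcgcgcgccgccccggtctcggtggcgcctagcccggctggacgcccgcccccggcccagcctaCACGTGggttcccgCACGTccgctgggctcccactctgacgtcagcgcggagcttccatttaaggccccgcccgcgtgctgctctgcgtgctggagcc

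The match in Car9 begins 18 bases before the start, while that in Egln3 begins 229 bases before it. Ankrd37 holds 1 match at 241 and 1 at 6 bases before its start. Ldha holds 5 matches counting both strands, and Car9 and Ldha, which both carry the letters, had different library orders: Car9 was highest in MEKi 4, where Ldha was lowest.

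Dusp6 encodes a phosphatase that inactivates ERK, and it serves here as a readout of the pathway that trametinib blocks. Its values were 12.19, 12.14, 9.31 and 9.24 in control 1 to 4 and 8.88, 12.12, 12.20 and 11.01 in MEKi 1 to 4, so low and high libraries stood under both labels. The 3 lowest ran from 8.88 to 9.31 and the other 5 from 11.01 to 12.20, with a gap of 1.70 in a range of 3.31. No correlation across libraries is therefore given, and libraries are set side by side in the order of Dusp6.

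The enzymes did not follow this order. From the lowest to the highest Dusp6, namely MEKi 1, control 4, control 3, MEKi 4, MEKi 2, control 2, control 1 and MEKi 3, the mean of the 14 enzymes was 13.46, 13.14, 13.11, 12.92, 13.49, 13.54, 13.43 and 13.01. The library with the lowest Dusp6, MEKi 1, was among the highest for the enzymes. MEKi 3, with the highest Dusp6, was among the lowest. Its Dusp6 (12.20) was nearly level with that of control 1 (12.19), control 2 (12.14) and MEKi 2 (12.12), where the enzyme mean was high. In control 4, control 3 and MEKi 4, with lower Dusp6, the enzyme mean was lower (13.14, 13.11 and 12.92). MEKi 1 exceeded MEKi 3 for all 14 enzymes, for all 12 hypoxia response genes and for 34 of the 36 members, against 49.7% of all genes. It also did so for 14 of 14 acinar and 9 of 10 epithelial markers, but for 0 of 8 endothelial markers and 1 of 8 cell division genes. In the same order the mean of the 12 response genes was 11.12, 10.79, 11.04, 10.94, 11.12, 11.13, 11.15 and 10.16. Apart from MEKi 3 it spanned little, from 10.79 to 11.15. Hif1a was the 1 member of 36 that shared its 4 highest libraries with Dusp6, and also the 1 that shared its 3 lowest. All genes had the first match in 6.59% and the second in 5.21% of cases, so matches were not more frequent among members, and that of the 3 lowest rests on nearly equal Hif1a values in control 3 and MEKi 4 (11.39 and 11.40). The carrier mean was 10.48, 10.13, 10.33, 9.82, 10.61, 11.02, 10.73 and 10.24, high in control 1, control 2 and MEKi 2 but low in MEKi 3. Within the controls, control 1 and control 2, which had the higher Dusp6, exceeded control 3 and control 4 for 13 of the 14 enzymes, all 3 carriers and 25 of the 36 members, against 23.6% of all genes. The same order held for 8 of 8 endothelial markers, 8 of 8 cell division genes, 6 of 10 macrophage and 4 of 10 epithelial markers. It held for 0 of 14 acinar and 2 of 7 neutrophil markers. The part of cell content in this order was not tested. Under the MEKi label, MEKi 2 exceeded MEKi 1, which had the lower Dusp6, for 6 of 14 enzymes and 17 of 36 members (48.5% of all genes).

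**Figure D5:**
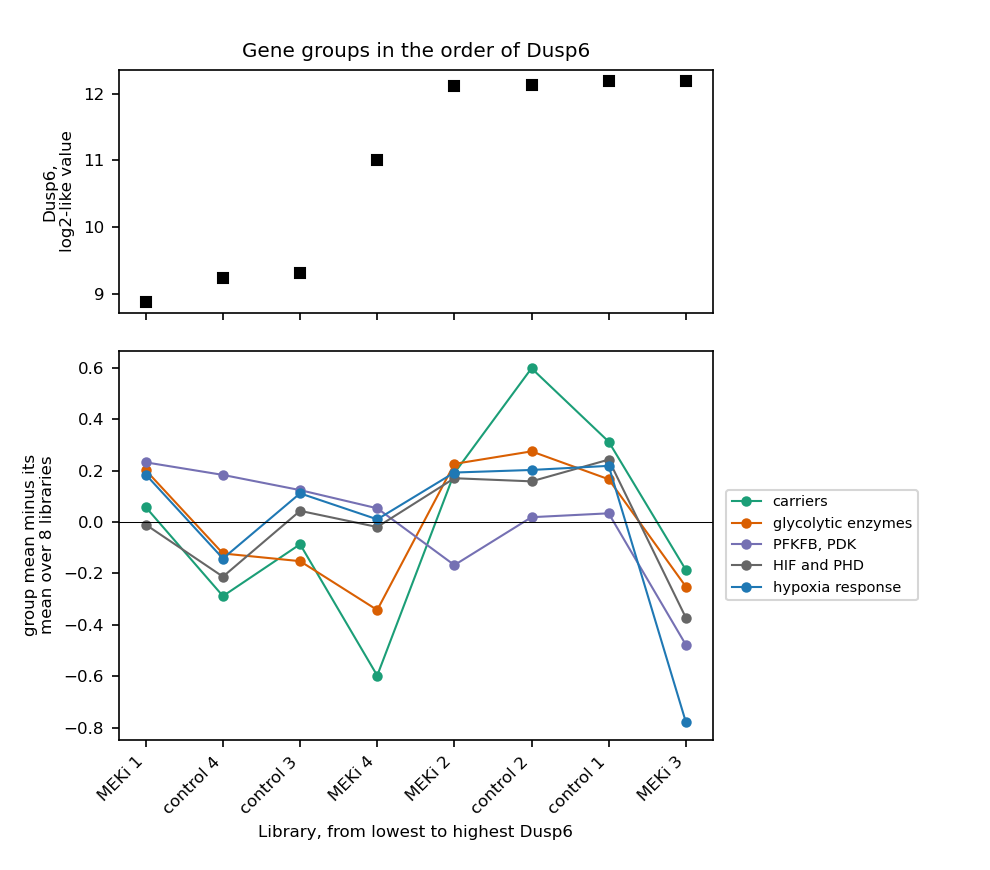
Dusp6 (top, log2-like value) and the means of 5 gene groups relative to their mean over 8 libraries (bottom), with libraries ordered from lowest to highest Dusp6. The enzyme and hypoxia response means are high at MEKi 1, the lowest Dusp6, and lowest or near lowest at MEKi 3, the highest. Dusp6 in MEKi 3 is nearly level with control 1, control 2 and MEKi 2, where both means are high.

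Genes of the pathway outside the members were also not called between labels. Of 76 listed genes 72 were measured. Limma called 0 of them (0.00523% of all genes), and 1 had an unadjusted p under 0.05 (1.77% of all genes). Means were lower under the MEKi label for 42 of the 72, beside 31 of 36 members, with a median difference of -0.04 beside -0.12. Of the 18 other glycolytic isozymes and carriers, 8 had lower and 10 had higher means. Their median difference was 0.01, and none of them had the enzymes' highest 4 libraries.

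Among 10 measured genes of gluconeogenesis and glycogen, 7 had lower means. Pygl, a glycogen phosphorylase, had 10.08, 10.32, 10.10 and 9.77 in the controls and 9.93, 9.64, 9.90 and 8.98 in the MEKi libraries (difference -0.46, SE 0.21), lowest in MEKi 4. Ppp1r3c, which targets a phosphatase to glycogen, had 7.25, 7.24, 8.16 and 8.75 and 8.27, 7.14, 6.63 and 6.39. It was high in control 4 and low in MEKi 4, in contrast to the enzymes, for which both were low.

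Of 32 other hypoxia targets, 21 had lower and 11 had higher means, with a median difference of -0.07. MEKi 3 was the lowest library for 13 of these 32, compared with all 12 of the members' response genes and 13.8% of all genes. Edn1, the vasoconstrictor endothelin 1, had 8.13, 8.21, 9.87 and 9.71 and 9.49, 8.67, 7.86 and 9.56: control 3, control 4, MEKi 4 and MEKi 1 were high. Stc2, a secreted stanniocalcin, had the smallest p of the list (difference -0.24, SE 0.14, limma adjusted p = 1). The 12 partners and regulators of HIF varied least, with a median range of 0.48 against 0.92 for the members and 0.62 for all genes. Hif3a, an alternative HIF subunit with few reads, had the smallest p there (difference -0.16, SE 0.13). Ube2s and Eloc, which encode parts of the ubiquitin machinery, had the widest ranges, 0.77 and 0.67.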

How the data were processed

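RNA of pancreatic tumour isografts from 8 mice was sequenced from stranded total RNA libraries, per the labels' protocols. STAR 2.5.3a, DESeq2 1.18.1 and build GRCm38 are named in the submitters' processing notes; the sources used here do not give the counting step or annotation. The authors deposited 1 table of variance-stabilised log2 values. Of 19431 rows, 32 named no gene (0.101% to 0.167% of recovered reads) and 86 symbols had several rows, of which the highest mean was kept, leaving 19129 genes with at least 25 reads in total. Reads were recovered by inverting the transformation and were whole within 0.01. Levels per length used GENCODE M21 exons (GRCm38), which also gave coordinates.

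MEKi was compared with control in limma 3.58.1 (R 4.3.3) with lmFit and eBayes with trend, two-sided, with p adjusted by Benjamini-Hochberg across the 19129 genes at 0.05; the model was tested on simulated data. P-values set each difference against the spread between these 4 mice per label. That spread is moderated by a trend over all genes. Members and lists were chosen with earlier results of these data known. Values in every library are given for 12 members and Dusp6 listed by name, and for the largest difference and range in each role; pathway lists name the smallest p and the 2 largest ranges, except genes not reported here. No correlation with Dusp6 was computed, because of the gap in its values. Alternatives comprised scaling, filters, weights, an acinar covariate, voom, replicate numbers as a block and left-out libraries.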

Additional observations from a re-analysis of the deposited data

How the results depend on the processing

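Limma called 0 of the 36 members under all 20 alternative settings, with a lowest adjusted p of 0.984. Over all genes it called 1, against 0 with the 75% of genes of highest mean, 0 with the acinar covariate, 0 without control 2 and MEKi 3, 4 without control 2 and control 3 (these 2 exclusions were chosen after seeing the data) and 0 to 2 leaving out each library. With replicate numbers as a block it called 0. Deviations of same-numbered libraries from their label means correlated at -0.33, 0.20, -0.46 and 0.02, and 1 control and 0 MEKi libraries correlated best with their own number. Such correlations also carry differences in cell content, so they cannot decide whether the numbers pair the mice. The median difference ran from -0.16 to 0.03 for the enzymes and from -0.27 to -0.02 for the hypoxia response genes leaving out each library. Directions turned in 88 of 740 gene values, for 25 of 37 genes, and the cause was not tested. With the acinar covariate the difference became 0.046 for Pdk1, 0.23 for Ndrg1, 0.076 for Bnip3 and 0.049 for Kdm3a. With array weights the difference became 0.10 for Gapdh, 0.12 for Pgk1, 0.074 for Pgam1, 0.023 for Eno1, 0.059 for Pkm, 0.0075 for Ldha, -0.017 for Epas1, 0.046 for Ankrd37 and -0.037 for Dusp6. With medians aligned the difference became 0.028 for Pgk1 and 0.0066 for Pgam1. After quantile normalization the difference became 0.32 for Gapdh, 0.0044 for Pgk1, 0.051 for Eno1, 0.20 for Pkm and 0.012 for Ldha. In voom the difference became 0.0018 for Pgk1. Without control 2 and MEKi 3 the difference became 0.094 for Hk1, 0.15 for Pfkl, 0.045 for Tpi1, 0.12 for Gapdh, 0.12 for Pgk1, 0.025 for Pgam1, 0.095 for Eno1, 0.12 for Pkm, 0.0054 for Ldha, 0.053 for Pdk1, 0.029 for Vegfa, 0.26 for Ndrg1, 0.19 for Bnip3, 0.0060 for Ankrd37, 0.065 for P4ha1, 0.012 for P4ha2 and 0.071 for Kdm3a. Without control 2 and control 3 the difference became 0.026 for Hk1 and 0.00038 for Eno1. Leaving out each library, the difference ran from -0.068 to 0.10 for Aldoa, -0.38 to 0.072 for Ankrd37, -0.25 to 0.21 for Bnip3, -0.16 to 1.06 for Dusp6, -0.031 to 0.089 for Egln1, -0.12 to 0.031 for Eno1, -0.044 to 0.098 for Epas1, -0.17 to 0.11 for Gapdh, -0.050 to 0.12 for Gpi1, -0.27 to 0.062 for Hif1a and -0.17 to 0.040 for Hk1, and from -0.20 to 0.074 for Kdm3a, -0.27 to 0.032 for Ldha, -0.36 to 0.27 for Ndrg1, -0.12 to 0.051 for Pdk1, -0.23 to 0.066 for Pfkl, -0.14 to 0.010 for Pfkm, -0.32 to 0.011 for Pfkp, -0.096 to 0.12 for Pgam1, -0.11 to 0.15 for Pgk1, -0.18 to 0.079 for Pkm and -0.46 to 0.0050 for Vegfa. Of the members, only Adm fell under 100 reads in any library.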

Other observations

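Isozymes of the same step were also compared within a library, per length of annotated exon, which does not depend on the size of the library. The ratio of Hk2 to Hk1, the inducible to the housekeeping hexokinase, was from 1.45 to 2.41 in the controls and from 1.38 to 1.67 in the MEKi libraries, highest in control 1 and lowest in MEKi 1. The size of such ratios depends on the annotated lengths: in MEKi 1, Hk2 had 5063 reads and Hk1 5247. Ldha, whose subunit favours lactate production, exceeded Ldhb, the subunit of heart muscle, by 43.7 to 103 times in the controls and 62.8 to 146 times in the MEKi libraries. The largest Ldha to Ldhb ratio was in MEKi 2 and the smallest in control 4. Slc2a1 exceeded Slc2a3 by 17.9 to 29.9 times in the controls and 14.9 to 35.6 times in the MEKi libraries. Hif1a exceeded Epas1 in every library, by 1.73 to 2.71 times in the controls and 1.59 to 2.5 times in the MEKi libraries. Egln1 was below Egln3 in 7 of 8 libraries, with ratios from 0.420 to 0.584 in the controls, and above it in MEKi 3 at 1.25. The labels overlapped for each of these ratios.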
